A study of Homo sapiens with 6 samples.

Results

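The 10 genes described here encode enzymes that build the bases of RNA and DNA. They were listed by enzyme role, with earlier results of these data known: CTPS1, CTPS2, CAD, UMPS and DHODH of pyrimidine synthesis, and PPAT, GART, PAICS, IMPDH1 and IMPDH2 of purine synthesis. They are 10 of the 20007 protein-coding genes examined. For each gene, the peaks of histone H3 acetylated at lysine 27 (H3K27ac), a mark of active promoters and enhancers, were counted in a promoter window and in the gene body. The promoter window extended 2500 bases both up- and downstream of the canonical transcript start.

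The assay was CUT&Tag: an antibody brings a transposase to the marked histone, and the enzyme cuts and tags the DNA nearby. The cells were 2 established acute myeloid leukemia (AML) lines, Kasumi-1, which carries a RUNX1::RUNX1T1 fusion, and MV4-11, which carries a KMT2A fusion. In each line a control (NC), which the labels call untreated and the study made with a control hairpin, stood beside cells with a short hairpin RNA against the histone chaperone ANP32B (sh-ANP32B). The cells were lines selected with puromycin, and the labels do not say which hairpin against ANP32B a library carried. The authors merged replicates before they called peaks, so each of the 4 groups is 1 peak list, with no spread between replicates and no test. The lists give positions and widths but no height or read total, so the depth of each library is unknown.

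Pyrimidine and purine nucleotides are assembled from amino acids, bicarbonate, one-carbon units and ribose phosphate, and dividing cells draw on this route to copy DNA and make ribosomal RNA. CAD, DHODH and UMPS make UMP, and the CTP synthases CTPS1 and CTPS2 turn UTP into CTP. PPAT, GART and PAICS carry out steps on the way to IMP, which IMPDH1 and IMPDH2 commit to guanine nucleotides. Several of these genes are textbook targets of MYC, which binds the letters CACGTG (the E-box) with its partner MAX.

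The lists held between 22136 and 24523 peaks on chromosomes 1 to 22, X and Y. Peaks covered 32.7 Mb (NC) and 33.7 Mb (knockdown) of the genome in Kasumi-1, and 27.9 Mb and 23.0 Mb in MV4-11. Of all protein-coding genes, 47.7%, 45.3%, 35.8% and 28.6% had a promoter peak in these lists. The smallest peaks of the lists were 357, 354, 289 and 275 bases wide. Of 7 myeloid markers, 3 or 4 had a promoter peak in each library (SPI1 in all 4), while MPO and CSF1R had none in any. Of 5 lymphoid markers, 1 or 2 had a promoter peak in each library (CD79A in all 4). None of the 3 erythroid or 2 epithelial markers had a promoter peak in any library. The promoter window of ANP32B itself held 3447 bases under peaks in NC and 3432 with the knockdown in Kasumi-1, and 3433 and 2631 in the same order in MV4-11. A hairpin acts on RNA, so these values do not check the knockdown.

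The sequences that the results below turn on are shown first, all 5′ to 3′ on the strand of the gene. At CTPS1 the peak of MV4-11 sh-ANP32B left uncovered the bases just before the start. This 30-base site on the plus strand of chr1:40979617-40979646 (hg38) lies in them. It is within the annotated extent of CTPS1 but before its canonical transcript. Capitals mark TGCGCA, part of the motif of NRF1.

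CTPS1 upstream site: ctgtcccgcgccTGCGCActccaggccccg

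The upstream edge of the CTPS1 peak in Kasumi-1 lay 156 bases closer to the start in sh-ANP32B than in NC. The bases between both edges, chr1:40979144-40979299 (hg38, plus strand, outside annotated exons), held none of the motifs searched and 64.7% G and C.

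CTPS1 edge in Kasumi-1: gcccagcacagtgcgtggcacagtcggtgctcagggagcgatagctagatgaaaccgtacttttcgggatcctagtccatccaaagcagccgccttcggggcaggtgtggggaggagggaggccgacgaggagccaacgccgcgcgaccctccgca

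IMPDH1 is shown by the 250 bases before its start, chr7:128409983-128410232 on the minus strand (RefSeq, GRCh38.p14), because the peaks of both Kasumi-1 libraries covered them and those of both MV4-11 libraries did not. Capitals mark GGGCGG, the GC box read by the SP1 family, on either strand.

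IMPDH1 upstream: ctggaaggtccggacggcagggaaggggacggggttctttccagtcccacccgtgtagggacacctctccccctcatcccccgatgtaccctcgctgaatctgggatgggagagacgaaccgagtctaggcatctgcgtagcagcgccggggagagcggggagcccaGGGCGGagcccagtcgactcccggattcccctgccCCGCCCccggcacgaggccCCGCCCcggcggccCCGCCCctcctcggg

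E-boxes near the starts of CAD, UMPS, DHODH and PPAT are shown with 10 bases to each side and the E-box in capitals, because their place under a peak differed between genes and libraries. Both CAD sites lie in the untranslated part of exon 1, at chr2:27217441-27217466 and chr2:27217470-27217495. The UMPS site, chr3:124730831-124730856, is in intron 1. The DHODH site, chr16:72008575-72008600, and the PPAT site on the minus strand, chr4:56435782-56435807, lie before the start, the latter within the annotated extent of PAICS. The PPAT site is the only one of its window under a peak in MV4-11 NC, and a site closer to the PPAT start, 118 bases after it, was under peaks in Kasumi-1 only.

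CAD first E-box: cgccgttagcCACGTGgaccgactcc

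CAD second E-box: gcgccgtcctCACGTGgttccagtgg

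UMPS E-box: cacgcttagaCACGTGttttgcaaaa

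DHODH E-box: cgctactgcgCACGTGcacccaacca

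PPAT E-box: cggagatttcCACGTGcagcaaatac

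The first question was how the mark at these genes was laid out in each library. In Kasumi-1, peaks lay in the promoter windows of 8 of the 10 genes with NC and of 8 with the knockdown. In MV4-11 the counts were 7 and 4. Wherever a gene had a promoter peak, it had exactly 1. The canonical starts of PPAT and PAICS lie 645 bases apart on opposite strands. These genes shared each of their promoter peaks, so the 10 genes give 9 separate promoters.

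CAD (chr2:27217369-27243943, plus strand) encodes the enzyme of the first 3 steps of pyrimidine synthesis. Its promoter window held 1191 bases under peaks in NC and 1075 with the knockdown in Kasumi-1, and 444 and 0 in the same order in MV4-11. The Kasumi-1 peaks ran across the start, from 417 bases before it in NC. In MV4-11 NC the peak began 62 bases after the start and overlapped exon 1 but not exon 2. With the knockdown in MV4-11, the nearest peak lay 4380 bases upstream, at the start of SLC5A6.

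UMPS (chr3:124730433-124749273, plus strand) encodes the enzyme that ends the route to UMP. In Kasumi-1 it had 690 bases under a promoter peak with NC and 640 with the knockdown, and in MV4-11 it had 0 in both. Both Kasumi-1 peaks lay wholly downstream of the start, over exon 1 and intron 1. A noncoding RNA starts 30 bases away on the other strand, so the peak cannot be given to UMPS alone. In MV4-11 NC the nearest peak was 377138 bases away. 9.72% of all protein-coding genes had this pattern of a promoter peak in both Kasumi-1 libraries and in neither MV4-11 library.

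DHODH (chr16:72008588-72027664, plus strand), the mitochondrial enzyme that makes orotate, had no peak in its promoter window or gene body in any library. Its nearest peak was 84306 bases away in both Kasumi-1 libraries, at the start of TXNL4B. In MV4-11 it was 89054 bases away in NC and 102793 in sh-ANP32B. The promoter window of DHODH held 163 CpG dinucleotides and 47.5% G and C, against medians of 145 and 49.5% over all genes.

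CTPS2 (chrX:16587999-16712936, minus strand), the second CTP synthase, likewise had no peak in its window or body in any library. The nearest one lay 74062 bases away in Kasumi-1 NC and 257784 bases away in MV4-11 sh-ANP32B. A start without a promoter peak in all 4 libraries was found for 50.1% of protein-coding genes. The window of CTPS2 had 52.1% G and C and 174 CpG dinucleotides, against 53.6% and 225 for CTPS1.

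CTPS1 (chr1:40979300-41012565, plus strand), the CTP synthase on which dividing lymphocytes depend, had a promoter peak in all 4 libraries, as 25.9% of genes did. The bases under it were 1931 in NC and 1748 with the knockdown in Kasumi-1, and 1455 and 672 in the same order in MV4-11. In width, the peak stood at percentile 78.1 of all peaks of its own list for Kasumi-1 NC, and at 74.9 after knockdown. For MV4-11 these percentiles were 76.4 and 44.9. It lay over exon 1 of 19 and the bases around it, and the gene body held no further peak.

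The bases before the CTPS1 start were covered to a different length in each library. In Kasumi-1 the peak covered 552 of them with NC and 396 with the knockdown. In MV4-11 it covered 311 with NC and 0 with the knockdown, where it began 5 bases after the start. In MV4-11 the upstream edge lay 316 bases further in with the knockdown and the downstream edge 467 bases. The 300-base RefSeq promoter of CTPS1 held TGCGCA at 67 and 3 bases before the start and 4 GC boxes between 133 and 22 bases before it. All 6 lay under the peaks of both Kasumi-1 libraries and of MV4-11 NC, and none lay under that of MV4-11 sh-ANP32B.

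PPAT (chr4:56393362-56435615, minus strand) encodes the amidotransferase that commits ribose phosphate to purines, and PAICS (chr4:56435741-56464578, plus strand) the enzyme of 2 middle steps. Their shared peak gave each window 2958 bases in NC and 2904 with the knockdown in Kasumi-1, and 292 and 0 in the same order in MV4-11. The Kasumi-1 peaks spanned both starts. The MV4-11 NC peak lay between these canonical starts, from 415 to 124 bases before the PPAT start. It covered an earlier start of PAICS that RefSeq also lists. It was 292 bases wide, within a few bases of the narrowest peak of that list.

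GART (chr21:33503931-33543491, minus strand), an enzyme of 3 steps of purine synthesis, had nearly the same coverage everywhere. Its window held 2525 bases in NC and 2666 with the knockdown in Kasumi-1, and 2498 and 2414 in the same order in MV4-11. The peak also covered the start of SON, a splicing factor gene 921 bases away on the other strand, and cannot be given to GART alone. The 300-base RefSeq promoter of GART was the only 1 of the 9 with the ETS letters CCGGAAG.

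IMPDH1 (chr7:128392277-128409986, minus strand) encodes one of the isoforms of IMP dehydrogenase. Its window held 3027 bases in NC and 3001 with the knockdown in Kasumi-1, and 1811 and 333 in the same order in MV4-11. The Kasumi-1 peaks covered the start, exons 1 to 3 and the upstream bases printed above. The MV4-11 NC peak began 502 bases after the start, over exons 2 and 3, and the MV4-11 sh-ANP32B peak began 1115 bases after it, within intron 3. All 4 GC boxes of the printed stretch were therefore under peaks in Kasumi-1 only.

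IMPDH2 (chr3:49024325-49029447, minus strand), the isoform known to be raised in dividing cells, had a narrow peak at its start in all 4 libraries. The bases in the window were 753 in NC and 642 with the knockdown in Kasumi-1, and 382 and 337 in the same order in MV4-11. In both MV4-11 libraries the peak was among the narrower ones of its list, at width percentile 12.7 in NC and 9.3 in sh-ANP32B. A noncoding RNA starts 82 bases from the IMPDH2 start on the other strand.

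**Figure D1:**
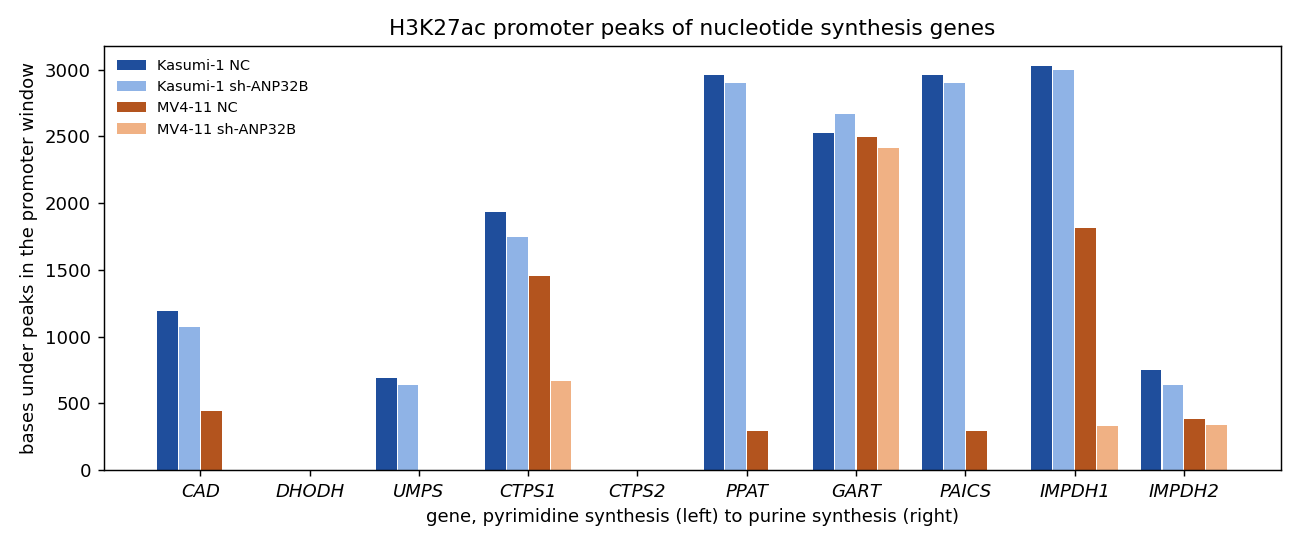
Bases under H3K27ac peaks in the promoter window (vertical axis, from 0) for the 10 genes (horizontal axis), 1 bar per library, dark for NC and light for sh-ANP32B, blue for Kasumi-1 and orange for MV4-11. There is 1 library per group and so no error bar. The bars of GART stand between 2414 and 2666 in all 4 libraries, those of CTPS2 and DHODH are at 0, and the light orange bars of CAD, PPAT and PAICS are at 0.

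**Figure D2:**
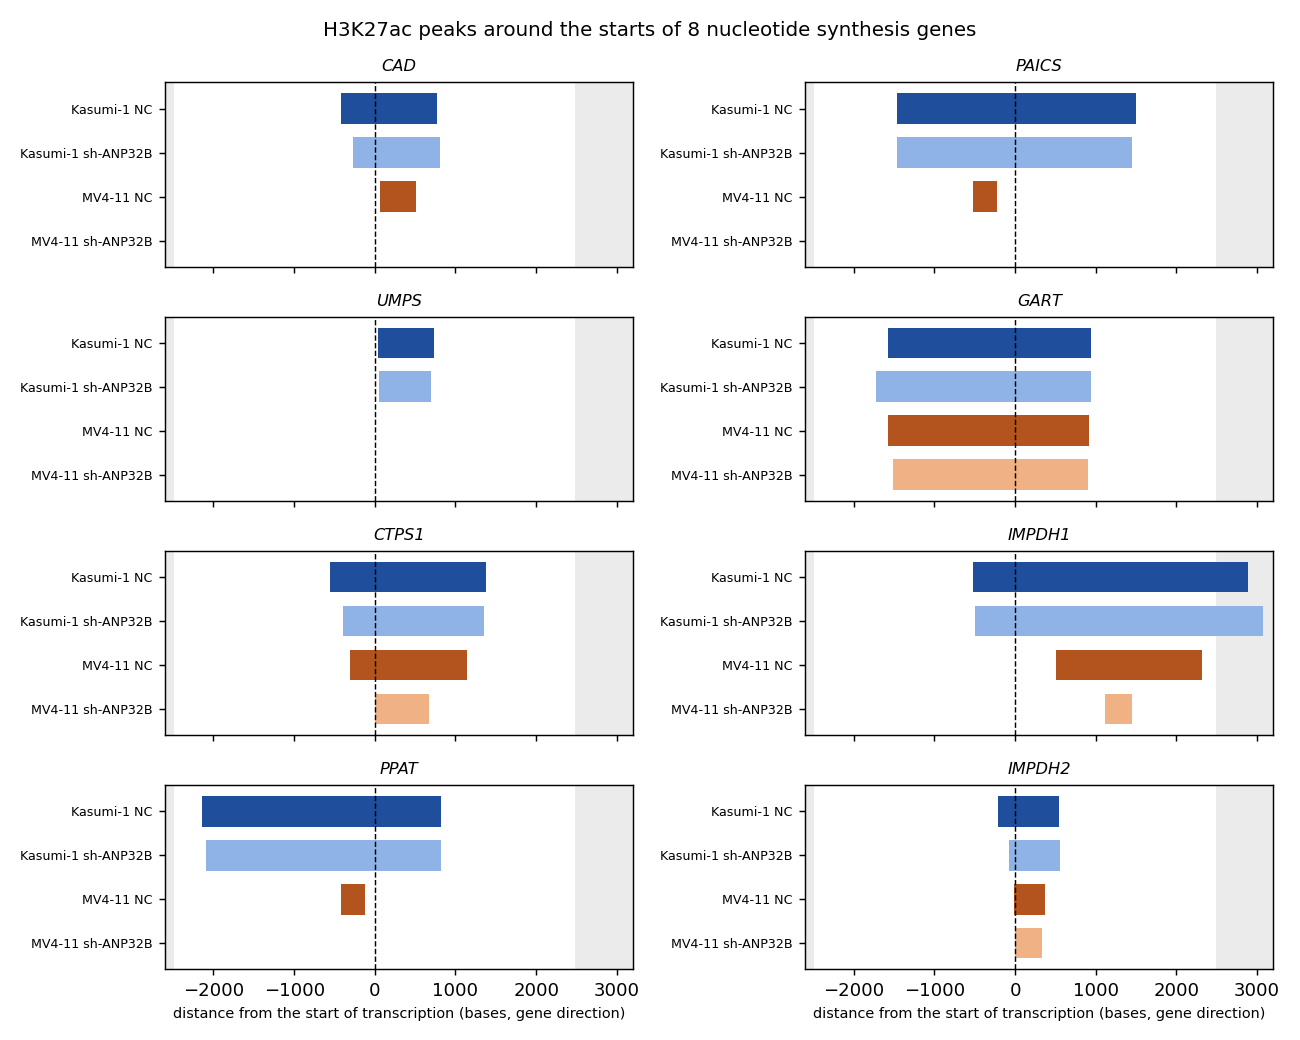
Position of each promoter peak (bars) by distance in bases from the start of transcription, in the direction of the gene, for the 8 genes with a peak. The dashed line is the start and grey marks what lies outside the window of 2500 bases to each side. The peak of CTPS1 spans the start in 3 libraries and begins 5 bases after it in MV4-11 sh-ANP32B, and the peaks of IMPDH1 span the start in Kasumi-1 only.

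The knockdown was then compared with its control within each line. A gene was called lower where the bases under peaks in its window were at most the NC value divided by 1.5, 0 included, and higher where they were at least 1.5 times it. In Kasumi-1, 0 of the 8 genes with a promoter peak were called lower and 0 higher. Over all 9705 genes with a promoter peak in either Kasumi-1 library, 14.6% were called lower and 4.86% higher. In MV4-11, 5 of 7 genes were called lower (CTPS1, CAD, IMPDH1, PPAT and PAICS) and 0 higher. The background there was large, with 45.0% of 7469 genes called lower and 7.28% higher, and PPAT and PAICS are 1 promoter counted as 2 genes.

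In Kasumi-1, GART had more bases with the knockdown and the other 7 had fewer. These directions were not firm: with a window of 1000 bases to each side the differences were -8 at GART, 1 at PPAT and 0 at PAICS, and with whole peaks taken by their midpoint the difference was 161 at IMPDH1. By this mere count of direction, 49.9% of all genes had fewer and 48.9% more. The differences were small, with ratios of sh-ANP32B to NC from 0.853 at IMPDH2 to 1.06 at GART. CTPS1 had a ratio of 0.905, CAD 0.903 and UMPS 0.928. IMPDH1 had a ratio of 0.991, and PPAT and PAICS of 0.982, and these 3 turned to 1.03, 1.02 and 1.02 once divided by the ratio over all genes. Summed over the 10 genes, the bases were 16033 in NC and 15580 in sh-ANP32B, a ratio of 0.972, against 0.96 for the sum over all genes.

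In MV4-11, all 7 genes with a peak had fewer bases, as had 78.1% of all genes. IMPDH1 had the lowest ratio of those that kept a peak, 0.184 (log2 -2.44), which was at percentile 0.554 of the ratios of all genes with a peak in both libraries. This ratio rests on a narrow peak in sh-ANP32B, 333 bases wide and at width percentile 8.64 of its list. With 1 smallest width and gap of 357 bases for all lists, IMPDH1 went from 1811 to 0 bases. CTPS1 had a ratio of 0.462 (log2 -1.11), at percentile 11.4. CAD, PPAT and PAICS had no promoter peak with the knockdown, 3 of the 7 genes, as did 24.4% of all genes with one in NC.

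In MV4-11, GART had a ratio of 0.966 and IMPDH2 of 0.882. The IMPDH2 peaks were narrow, and with 1 smallest width and gap of 357 bases for all lists IMPDH2 went from 382 to 0 bases and was called lower. The sum over all genes had a ratio of 0.721, so relative to it IMPDH2 and GART turned upward, to 1.22 and 1.34, while CTPS1 was at 0.64 and IMPDH1 at 0.255. The sum over the 10 genes was 7174 bases in NC and 3756 in sh-ANP32B, a ratio of 0.524. Without GART that ratio was 0.287 and without IMPDH1 0.638, so single genes set its size.

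Over all genes, the share called lower in MV4-11 differed with the coverage in NC. Among genes with 1 to 499 promoter bases in NC, the class of CAD, IMPDH2, PPAT and PAICS, 62.5% were called lower and 60.1% had no peak with the knockdown. Among those with 1000 to 1999 bases, the class of CTPS1 and IMPDH1, 43.5% were called lower. In the class of GART, with 2000 bases or more, the share was 24.6%. The part of library depth and peak width in these differences was not tested.

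The edges of the peaks gave the same comparison in bases. In MV4-11, both edges lay closer in with the knockdown for all 4 genes that kept a promoter peak. Of the 3820 genes with 1 overlapping promoter peak in each MV4-11 library, 70.0% had the upstream edge and 68.3% the downstream edge closer in. The IMPDH1 peak was shorter by 613 bases at its upstream edge and by 865 at its downstream edge, at percentiles 94.7 and 97.3 of these genes. IMPDH2 and GART differed by 6 to 61 bases at either edge. In Kasumi-1, the downstream edge lay closer in for 4 of 8 genes, against 42.1% of 7187 genes. The upstream edge did so for 6 of 8, against 43.9%, by 156 bases at CTPS1, 145 at CAD and 128 at IMPDH2. At GART it lay 149 bases further out. The upstream edge counted at PPAT and the downstream edge counted at PAICS are the same edge of their shared peak, 55 bases closer in.

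**Figure D3:**
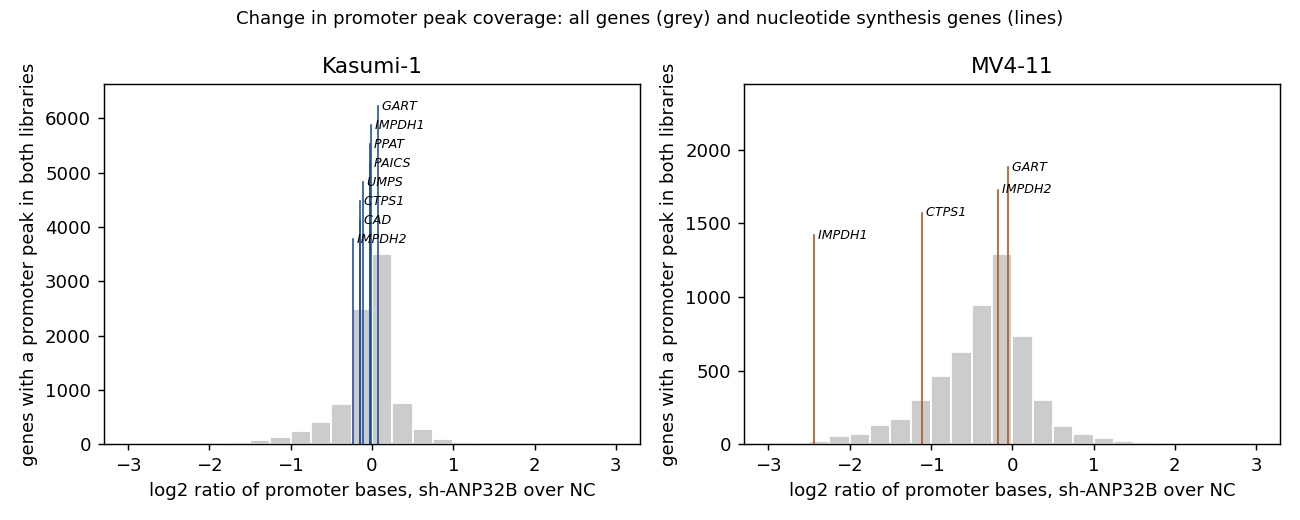
Number of genes (grey bars) by the log2 ratio of promoter bases in sh-ANP32B over NC, for genes with a peak in both libraries, in Kasumi-1 (left) and MV4-11 (right). Vertical lines mark the nucleotide synthesis genes, and their height carries no value. In Kasumi-1 the 8 genes lie between -0.23 and 0.078, and in MV4-11 IMPDH1 lies at -2.44 and CTPS1 at -1.11, while CAD, PPAT and PAICS have no peak with the knockdown and no ratio.

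The gene bodies added peaks in Kasumi-1 only. Bases under peaks within the 10 genes, promoter part included, summed to 15179 in NC and 16303 with the knockdown in Kasumi-1, and 6678 and 3615 in the same order in MV4-11. Outside the promoter windows of the canonical starts these were 3688, 4905, 0 and 0. The genes with such peaks were IMPDH1, IMPDH2 and GART.

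IMPDH1 had a second peak over exon 4 of 17 in Kasumi-1, 2435 bases wide in NC and 2118 in sh-ANP32B. With it, peaks covered 30.1% of the gene with NC and 29.3% with the knockdown, against 10.2% and 1.88% in MV4-11. Counting windows at every protein-coding transcript start raised the Kasumi-1 promoter sum of IMPDH1 from 3027 to 5845 for NC. For the knockdown this sum rose from 3001 to 5689. These windows took in the second IMPDH1 peak, so it lay outside the canonical window but near another annotated start. Whether that start was in use was not tested. GART gained a peak of 451 bases in intron 4 in Kasumi-1 sh-ANP32B.

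IMPDH2 had a second peak near its 3′ end in Kasumi-1, 870 bases wide over exons 10 and 11 of 14 in NC and 1766 bases wide over exons 10 to 13 in sh-ANP32B. Its gene body held 1463 bases under peaks with NC and 2376 with the knockdown in Kasumi-1, and 382 and 337 in MV4-11. This made IMPDH2 the 1 gene of 8 called higher in its body in Kasumi-1, where 7.63% of all genes were. None of the 8 was called lower there, against 12.1% of all genes. The wider peak lies 2337 bases from the start of NDUFAF3 and also under a readthrough gene, so it cannot be given to IMPDH2 alone.

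In MV4-11 the body sums had a ratio of 0.541, against 0.808 over all genes. Of 6 genes with a body peak there, 4 were called lower (CTPS1, CAD, IMPDH1 and PAICS), with 40.2% of all genes called lower. In Kasumi-1 the ratio was 1.07 for the 10 genes and 1.02 for all.

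**Figure D4:**
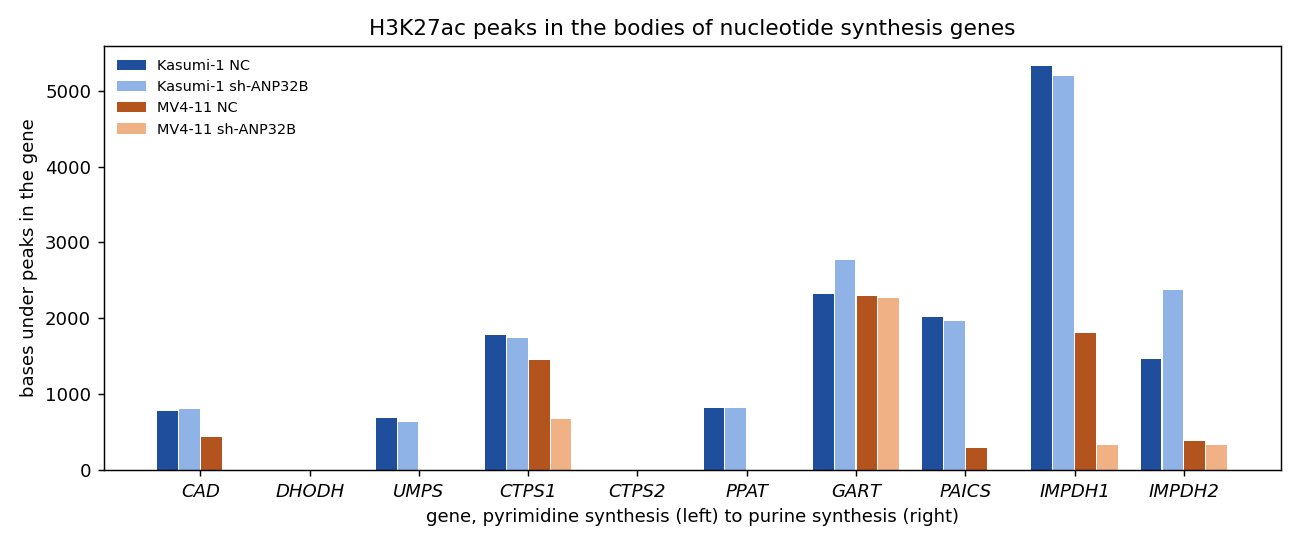
Bases under H3K27ac peaks within the gene, promoter part included (vertical axis, from 0), for the 10 genes, 1 bar per library in the colours of the promoter plot, with 1 library per group and no error bar. In Kasumi-1, IMPDH1 reaches 5323 (NC) and 5193 (knockdown), and IMPDH2 1463 and 2376.

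The NC libraries of the lines were then set side by side. All 8 genes with a promoter peak had more bases in Kasumi-1 NC than in MV4-11 NC, as had 83.9% of all genes, and 6 were called higher, against 61.9%. PPAT and PAICS had 10.1 times the bases in Kasumi-1, at percentile 99.5 of all genes, CAD 2.68 times and IMPDH2 1.97 times. IMPDH1 had 1.67 times, CTPS1 1.33 times and GART 1.01 times, and these 3 turned to 0.932, 0.74 and 0.564 once divided by the ratio over all genes, 1.79. In the sh-ANP32B libraries 7 of 8 were called higher in Kasumi-1, with 74.2% of all genes. GART was the exception, at 1.1 times, and relative to the ratio over all genes, 2.39, IMPDH2 and GART turned to 0.798 and 0.463.

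The E-boxes in the promoter windows were set beside the peaks. The CACGTG letters occurred in the windows of 7 of the 10 genes, against 49.1% of all genes, and not in those of CTPS1, GART and IMPDH2. Counting the shared PPAT and PAICS sites once, there were 13. In Kasumi-1, 8 of them lay under peaks of NC and 8 under peaks of the knockdown, and in MV4-11 the counts were 3 and 0. In each Kasumi-1 library, all sites of the PPAT and PAICS windows lay under the 1 peak shared by these genes. The sites are therefore not separate observations. Over all genes, 24.7%, 22.9%, 14.0% and 9.64% of such sites lay under peaks of the same lists. These shares include sites in windows without any peak.

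The 3 sites under peaks in MV4-11 NC were both CAD sites printed above and the PPAT site 182 bases before its start. The UMPS site was under peaks in Kasumi-1 only. DHODH had an E-box 159 bases before and another 213 bases after its start, and neither was under a peak in any library. In the 300-base RefSeq promoters, CACGTG was found for DHODH and PPAT among 9 genes (7.26% of 35116 promoters), TGCGCA for CTPS1 and DHODH (8.24%), and GGGCGG for 7 (45.0%). CCAAT, the NF-Y letters, was found for CAD, DHODH and GART (34.6%), and CCGGAAG was in 10.3% of promoters. Both strands were searched, and a match describes the letters only.

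Of the 48 other nucleotide metabolism genes compared, those whose promoter bases over the 4 libraries were closest to CTPS1 were GMPS, CMPK1 and MTHFD1, by the sum of absolute differences. GMPS, which makes GMP after the IMPDH step, had 1757 bases in NC and 1617 with the knockdown in Kasumi-1, and 1458 and 487 in MV4-11. CMPK1, a kinase of CMP and UMP, had 1790, 1882, 1121 and 652 bases in the same order. MTHFD1, which supplies one-carbon units, had 1926, 2022, 1762 and 539 bases. All 3 had a peak in each library and their smallest value in MV4-11 sh-ANP32B. They were chosen by these same values, so this likeness to CTPS1 is not a separate result.

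The wider pathway was described with 39 further genes in 5 lists. In Kasumi-1, 3 of the 39 were called lower, 0 higher and 36 neither. In MV4-11, 34 had a promoter peak in either library, of which 18 were called lower, 3 higher and 13 neither. Over all genes, 14.6% were called lower in Kasumi-1, and in MV4-11 45.0% lower and 7.28% higher, and the counts of each list below stand beside these shares. The summed ratio of the 39 was 0.975 in Kasumi-1 and 0.664 in MV4-11, beside 0.96 and 0.721 over all genes.

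Of 8 further purine synthesis genes, 2 were called lower and 6 neither in Kasumi-1. All 8 had fewer bases there, as had 49.9% of all genes, and their summed ratio was 0.837, against 0.96 over all genes. Of the 39 genes of all lists, 20 had fewer bases in Kasumi-1 and 19 more. PRPS2, which makes the ribose phosphate donor, had 836 promoter bases in Kasumi-1 NC and 0 in the other 3 libraries, and ADSS2, of AMP synthesis, had 1470 in NC and 950 with the knockdown. In MV4-11, 4 of 6 were called lower, GMPS among them (45.0% of all genes), and 2 higher (7.28%). PRPS1 had 315 bases with NC there, ATIC, the enzyme that closes the purine ring, 401, and ADSS1, also of AMP synthesis, 932, and each had 0 with the knockdown. PFAS, a middle step of the route, had 0 with NC and 555 with the knockdown, and ADSS2 had 0 and 495.

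Of 10 pyrimidine and deoxynucleotide genes, none was called in Kasumi-1, where TYMS, thymidylate synthase, had 3804 bases with NC and 4137 with the knockdown. In MV4-11, 5 of 9 were called lower, near the 45.0% of all genes, and 4 neither. TYMS had 952 bases with NC there and 0 with the knockdown. CMPK1, RRM1 and DTYMK, named after their values were seen, were also called lower.

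Of 11 salvage genes, TK1, the thymidine kinase of dividing cells, was the 1 called lower in Kasumi-1, with 1112 bases in NC and 417 in sh-ANP32B. In MV4-11, 5 of 9 were called lower, again near 45.0%, 1 higher and 3 neither. There TK1 had 317 bases with NC and 0 with the knockdown. The other 4 called lower, again named after their values were seen, were APRT, UCK2, TK2 and DCK. DGUOK, a mitochondrial kinase, had 0 and 300 bases. The 2 breakdown genes, SAMHD1 and NT5C2, were called in neither line, with SAMHD1 at 2082 and 2235 bases and NT5C2 at 1659 and 1828 in Kasumi-1, NC first. In MV4-11 they had 711 and 699 bases, and 2035 and 1999.

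Of 8 serine and one-carbon genes, none was called in Kasumi-1 and 4 were called lower in MV4-11 (45.0% of all genes), where all 8 had fewer bases, as had 78.1% of all genes. SHMT1, which moves a carbon from serine to folate in the cytosol, had 600 bases with NC there and 0 with the knockdown. The other 3 called lower, named in the same way, were MTHFD1, PSAT1 and PSPH.

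**Figure D5:**
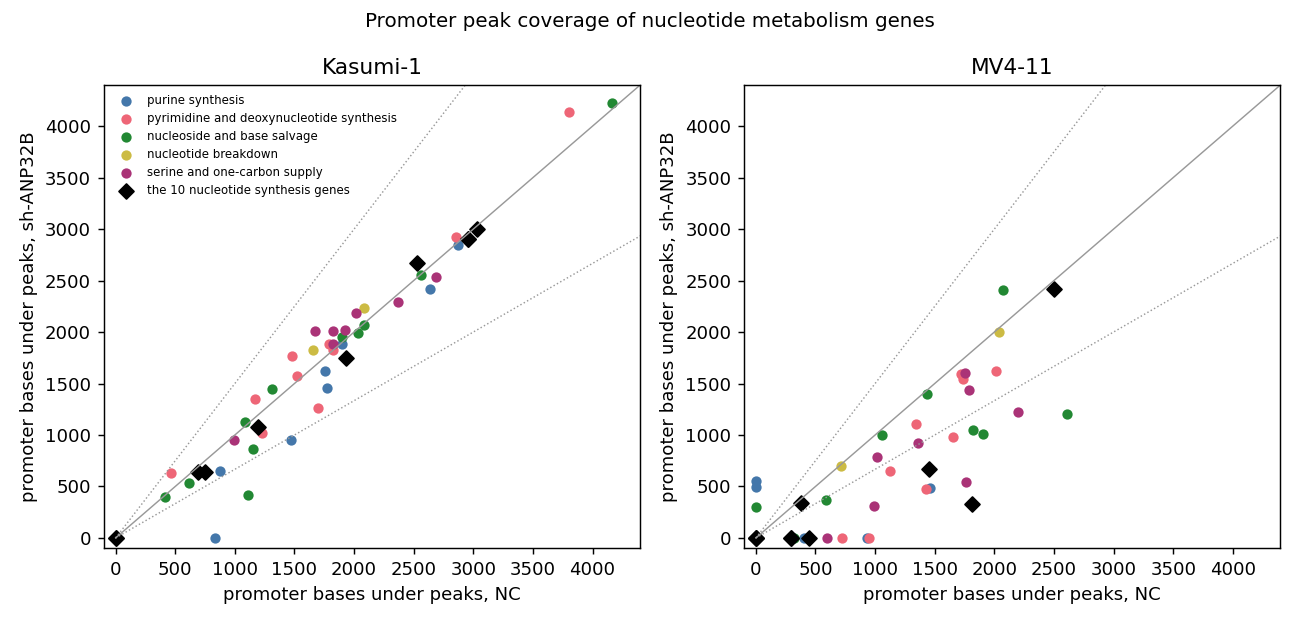
Promoter bases under peaks in sh-ANP32B (vertical) against NC (horizontal) in Kasumi-1 (left) and MV4-11 (right) for the 10 nucleotide synthesis genes (black diamonds) and 39 further genes, coloured by list. The solid line marks equal values and the dotted lines a ratio of 1.5 in either direction. In Kasumi-1, 3 of the further genes lie below the lower dotted line, and in MV4-11 18 of them do, 7 at 0 on the vertical axis.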

How the data were processed

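H3K27ac CUT&Tag peak lists of 4 libraries from 2 AML lines were used, 1 list per group. The 2 IgG libraries are not analysed here. The authors aligned reads to hg38, removed duplicates, merged replicates and called peaks. The submitters' processing notes name Bowtie2 2.4.4 and MACS3 3.0, while the methods name MACS2. Whether IgG served as control is not stated. The deposited values are the start, end and width of each peak in bases, counted from 1, with no height, enrichment or read total.

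Peaks on other sequences (3527 in all) were not used. Gene models were the canonical transcripts of GENCODE 44. Bases under peaks were summed over the window (2500 bases to each side) and over each gene with Python 3.11.15, pandas 2.3.3 and numpy 2.4.6, by code tested on simulated peaks. Genes were called at a ratio of 1.5 in either direction, and the share called over all protein-coding genes was given as background. With 1 list per group, no test was run. Precision is limited by unknown depth and by replicates merged upstream.

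All 10 genes are named. Of each pathway list, genes that lost or gained their last promoter peak are named, and otherwise those with the largest rise and drop. The values of 1 marker and 1 pathway gene are not reported here. The genes and lists were chosen with earlier results of these data known. Promoter sequences came from RefSeq (GRCh38.p14), where 9 of the 10 genes matched and all sequences checked were identical to hg38, and shorter sites were read from hg38. The alternatives were the window, the transcript starts, a common minimum width and gap, joining, width filters, scaling, the fold and single genes left out.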

Additional observations from a re-analysis of the deposited data

Results flagged for a closer look

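At 3 genes the difference between sh-ANP32B and NC had opposite signs in the cell lines. Each line had 1 library per group, so whether the lines differ was not tested. GART had 141 promoter bases more in Kasumi-1 sh-ANP32B than in NC, and a difference of -84 in MV4-11. With a window of 1000 bases to each side these became -8 and -23, with the same sign. Over the GART gene the differences were 443 and -23 bases. The extra intron 4 peak of Kasumi-1 sh-ANP32B, 451 bases wide, was larger than the first of these. The peak at the GART start held 2321 bases of the gene in Kasumi-1 NC and 2313 in sh-ANP32B, so the positive sign rests on the intron 4 peak. CAD gained 29 bases within the gene in Kasumi-1, at its downstream edge, and differed by -444 in MV4-11, where its only peak was absent with the knockdown. IMPDH2 had 913 more bases within the gene in Kasumi-1 and a difference of -45 in MV4-11. The second IMPDH2 peak, near the 3′ end, was present in Kasumi-1 only.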

How the results depend on the processing

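Of 64 alternatives of the summed values and counts, 54 stayed within 1.1 times (ratios) or 1.5 times (counts) of the value given and 10 moved, with 0 changes of direction. For MV4-11, the count of genes called lower was 5, and was 2 with only the 10000 widest peaks of each list and 2 with only peaks of at least 500 bases, since the CAD, PPAT and PAICS peaks were narrower than that. The MV4-11 promoter ratio of 0.524 became 0.468 when all lists were held to the same smallest width and gap, 357 bases, 0.419 with the 10000 widest peaks, 0.287 without GART and 0.638 without IMPDH1, the last 2 chosen after seeing the data. The MV4-11 body ratio of 0.541 became 0.461 and 0.409 under the first 2 of these. With the common width, PPAT and PAICS had no MV4-11 peak at all, and IMPDH2 went from 382 to 0 bases and was called lower. For Kasumi-1, the count of genes called lower went from 0 to 1 (CAD) with the 10000 widest peaks, and the body ratio of 1.07 became 1.33 outside the promoter window and 1.02 without IMPDH2. Outside the window the MV4-11 body had no bases and so no ratio. Of 105 alternatives for single genes, 95 kept the call and 10 changed it. The difference changed sign in 3 of them (GART and PPAT with the window of 1000 bases, IMPDH1 by midpoint, all in Kasumi-1) and became 0 in 13. By call, sign or a shift of the difference over 1.5 times, 22 moved. CTPS1 and IMPDH1 stayed lower in MV4-11 under each alternative run on single genes, with differences of -640 to -1455 for CTPS1 and -499 to -1811 for IMPDH1. Depth could not be assessed. No paired analysis was possible because each group was 1 list of merged replicates, and no replicate could be left out.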
